A study of Mus musculus with 14 samples.

Results

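Aldh1a1, Aldh1a3 and Rarres2 are 3 genes tied to vitamin A metabolism or named for a response to a retinoid. They were followed through every probe set of the deposited table that carries their symbol alone, 6 of 9645 probe sets and 3 of 6044 named genes. Expression was measured on 14 Affymetrix mouse genome arrays of cells sorted from the mammary glands of virgin female C57BL/6 mice, 6 to 8 weeks old. The labels name no drug, transgene or mutation for any group. The basal side comprised Thy-1+CD24medCD49fhigh cells (3 arrays), Thy-1-CD24medCD49fhigh cells (3 arrays) and CD24medCD49fmed cells (3 arrays), which the study calls CD24lowCD49fmed myoepithelial cells. The luminal side comprised CD24highCD49fmed cells (3 arrays), which the study calls colony-forming luminal progenitor cells, and CD24medCD49f-/low cells (2 arrays), which it calls luminal cells. All were stained for CD45, CD31 and Ter119, markers of leukocytes, endothelium and red cells, and sorted in 2 passes. The methods also list an antibody to PDGFRA, a fibroblast marker, with the same kind of label as those 3. Nothing in the labels ties replicates to separate animals, so p-values here measure only the spread between these samples, which may be technical.

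Retinaldehyde dehydrogenases carry out the last and irreversible step from vitamin A to retinoic acid, the ligand of nuclear retinoic acid receptors. ALDH1A1 and ALDH1A3 are cytosolic enzymes of this step, and both contribute to the aldehyde dehydrogenase activity by which mammary stem and progenitor cells are often sorted. RARRES2 encodes chemerin, a secreted chemoattractant and adipokine whose gene was named for induction by the synthetic retinoid tazarotene, and which binds the receptors CMKLR1 and CCRL2. The mammary duct has an outer basal layer of contractile myoepithelial cells and an inner luminal layer from which milk-secreting cells arise.

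Levels are log2 values centred by the authors on the mean of the 14 arrays, probe set by probe set, so 0 is a gene's own mean and no level of one gene can be set against that of another. Probe sets of a gene were averaged. All 14 basal epithelial marker genes were lower and all 11 measured luminal marker genes higher in the luminal arrays (limma, each adjusted p under 0.05). Of 10 luminal progenitor and alveolar genes, 6 were higher in CD24medCD49f-/low than in CD24highCD49fmed cells and none lower, beside 2.57% of all rows higher in CD24medCD49f-/low and 3.02% lower. These 6 genes were thus higher in the luminal group that the study does not call colony-forming. For all 7 measured hormone-sensing luminal genes CD24highCD49fmed minus CD24medCD49f-/low was above 0 (median 0.87 log2 beside 0.14 over all rows) and 1 passed. Array medians over the 7190 rows ran from -0.74 to 0.28 log2. Thy-1+CD24medCD49fhigh replicates 1 and 3 stood apart, with medians of -0.74 and -0.51 and an SD over rows of 1.35 and 0.95, against 0.08 and 0.63 in replicate 2. Results that rest on that group are given with and without them.

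In GRCm38.p6, by RefSeq, Aldh1a1 (gene ID 11668) lies on chromosome 19 at 20492583 to 20643463, Aldh1a3 (gene ID 56847) on chromosome 7 at 66390892 to 66427477, and Rarres2 (gene ID 71660) on chromosome 6 at 48569696 to 48572845. Sequence around the start was at hand for Aldh1a1, the basal member of the pair, and is shown because its 2 annotated starts give different windows and the single probe set does not tell which start was used. The window at the downstream start, chr19:20601718-20602017 on the + strand, reads as follows, with the CCAAT box letters in capitals.
Aldh1a1 downstream start: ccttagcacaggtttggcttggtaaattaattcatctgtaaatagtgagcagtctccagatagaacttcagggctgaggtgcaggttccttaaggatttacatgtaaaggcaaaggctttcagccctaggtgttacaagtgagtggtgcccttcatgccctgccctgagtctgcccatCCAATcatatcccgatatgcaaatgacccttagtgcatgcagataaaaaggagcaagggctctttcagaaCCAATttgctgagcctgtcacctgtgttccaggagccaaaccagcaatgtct
The CCAAT letters stood at -72 to -68 and at -2 to 2, counting the start-site base as 0. They occur on either strand in 37.4% of 32851 promoter windows of the same length. The half-site letters AGGTCA and AGTTCA of retinoic acid receptor elements and the letters TATAAA, searched on both strands, had no match in either Aldh1a1 window. Those letters occur in 16.3%, 14% and 13.6% of windows, and the absence of a match says only that these letters are not in these windows.

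Aldh1a1 was high in every basal array and low in every luminal array. In Thy-1+CD24medCD49fhigh cells its level was 0.73, 2.62 and 2.34 log2, in CD24medCD49fmed cells 0.71, 1.48 and 2.01, and in Thy-1-CD24medCD49fhigh cells 1.03, 0.44 and 0.95. In CD24highCD49fmed cells it was -2.41, -2.40 and -2.17, and in CD24medCD49f-/low cells -2.57 and -2.76. The lowest basal array thus lay above the highest luminal array, and the basal arrays spread more widely (SD 0.78, n = 9) than the luminal arrays (SD 0.22, n = 5). How many of all rows part the sides in this way was not counted, so the separation is a description only. Beside the lowest basal value, in Thy-1-CD24medCD49fhigh replicate 2, the median of the 14 basal marker genes was also low, at 0.45 against 1.91 and 1.92 in replicates 1 and 3. Beside the value of 0.73 in Thy-1+CD24medCD49fhigh replicate 1 that median was 0.62. Low values of the gene and of that median did not go together in every basal array. In Thy-1+CD24medCD49fhigh replicate 3 the median was 0.43 with Aldh1a1 at 2.34, and in CD24medCD49fmed replicate 1 it was 1.72 with Aldh1a1 at 0.71. The part of cell mixture in these values was not tested, and in sorted bulk RNA fewer cells of a type and less RNA per cell cannot be told apart.

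Aldh1a3 showed the opposite order. In Thy-1+CD24medCD49fhigh cells its level was -1.10, -1.50 and -1.05 log2, in CD24medCD49fmed cells -1.12, -1.45 and -1.32, and in Thy-1-CD24medCD49fhigh cells -1.37, -0.86 and -0.80. In CD24highCD49fmed cells it was 1.42, 1.65 and 1.33, and in CD24medCD49f-/low cells 3.25 and 2.92. Its levels fell into 3 tiers that did not overlap, the basal arrays at the bottom (SD 0.25, n = 9), CD24highCD49fmed between, and CD24medCD49f-/low at the top. The share of all rows with such tiers was not counted.

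**Figure D1:**
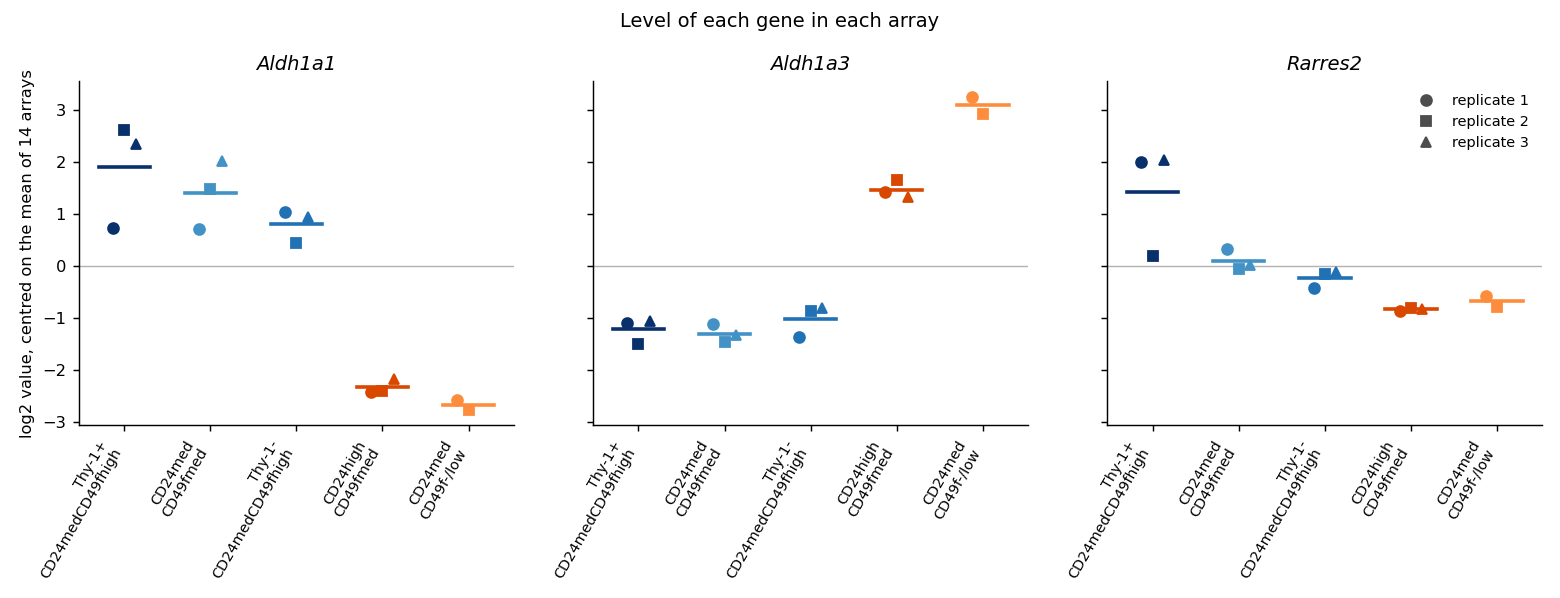
Centred log2 level of Aldh1a1, Aldh1a3 and Rarres2 (vertical axes) in each of the 14 arrays by sorted group (horizontal axes), with symbols by replicate number and lines at group means. Aldh1a1 is above 0 in the 9 basal arrays and below -2 in the 5 luminal arrays, Aldh1a3 the reverse with CD24medCD49f-/low highest, and Rarres2 is highest in 2 of 3 Thy-1+CD24medCD49fhigh arrays.

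The contrast of the luminal and basal sides, the mean of the 2 luminal group means minus the mean of the 3 basal group means, asks whether each gene follows the lineage. Aldh1a1 was lower in luminal cells by a difference of -3.86 log2 (SE 0.33, 14.6-fold, limma adjusted p = 2.351e-08). Aldh1a3 was 3.45 log2 higher (SE 0.26, 10.9-fold, limma adjusted p = 4.116e-09). The 95% intervals were -4.55 to -3.18 for Aldh1a1 and 2.91 to 3.98 for Aldh1a3. In this contrast 45.1% of the 7190 rows passed the test, 27.7% higher and 17.4% lower in luminal cells, and the median over all rows was 0.33, so passing it was common. With each array centred on its own median the differences were -4.13 and 3.18.

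Both enzymes also differed in each of the 6 pairs of a luminal and a basal group fitted on their own arrays. Aldh1a1 was lower in luminal cells, with differences of -4.56 to -3.13 log2, the smallest being CD24highCD49fmed minus Thy-1-CD24medCD49fhigh (limma adjusted p = 0.0001349) and the largest adjusted p over the pairs 0.004824. Aldh1a3 was higher by 2.48 to 4.38 log2, with a largest adjusted p of 0.004065. Of all rows, 18.7%, 36.7% and 50.0% passed for CD24highCD49fmed against Thy-1+CD24medCD49fhigh, Thy-1-CD24medCD49fhigh and CD24medCD49fmed cells. For CD24medCD49f-/low against the same groups the shares were 2.80%, 19.7% and 34.8%.

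Within an array, Aldh1a1 minus Aldh1a3, a difference of 2 centred values and not of amounts, ran from 1.30 to 4.13 in the basal arrays (mean 2.54, SD 0.95, n = 9). In the luminal arrays it ran from -5.82 to -3.50 (mean -4.58, SD 1.09, n = 5). The order of the groups by this difference was Thy-1+CD24medCD49fhigh (3.11, SD 1.17), CD24medCD49fmed (2.70, SD 0.77), Thy-1-CD24medCD49fhigh (1.82, SD 0.56), CD24highCD49fmed (-3.79, SD 0.27) and CD24medCD49f-/low (-5.75, SD 0.10). The 3 basal groups overlapped in their ranges and the 2 luminal groups did not.

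**Figure D2:**
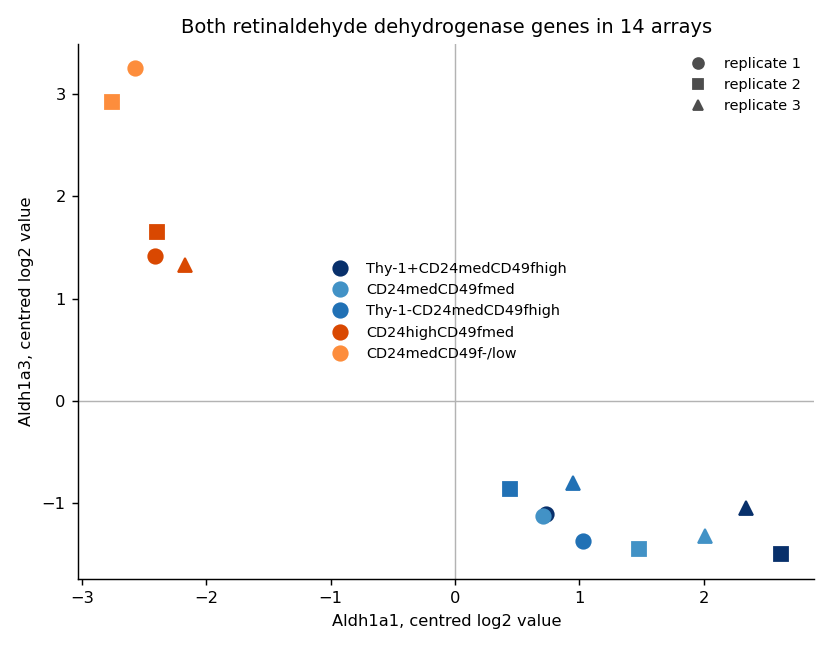
Aldh1a3 (vertical axis) against Aldh1a1 (horizontal axis), centred log2 values, 1 point per array with colour for the sorted group and symbol for the replicate number. The 9 basal arrays lie at positive Aldh1a1 and negative Aldh1a3 values and the 5 luminal arrays in the opposite corner, with both CD24medCD49f-/low arrays above the 3 CD24highCD49fmed arrays.

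Among luminal cells, the step in Aldh1a3 between CD24highCD49fmed and CD24medCD49f-/low was -1.62 log2 (SE 0.20, 3.07-fold lower in CD24highCD49fmed, 95% interval -2.07 to -1.17, limma adjusted p = 0.01126). In this pair 5.59% of rows passed, 3.02% higher and 2.57% lower in CD24highCD49fmed cells. The call did not hold with all 14 arrays in the fit (same difference, adjusted p = 0.2781), without CD24medCD49f-/low replicate 1 (-1.45, adjusted p = 0.1172) or without CD24highCD49fmed replicate 3 (-1.55, adjusted p = 0.06146). The 2 CD24medCD49f-/low arrays also differed in the myeloid list. Its median of 6 was 2.54 in replicate 1 and 0.23 in replicate 2, against -0.63 to -0.38 in CD24highCD49fmed cells. That list includes Cd14, also on the luminal progenitor list, with a mean of 2.64 in CD24medCD49f-/low and 1.59 in CD24highCD49fmed cells. In CD24medCD49f-/low arrays S100a9, S100a8 and Lyz2 reached 4.10, 3.59 and 2.30, while Ptprc and C1qb reached 0.19 and 0.26. Aldh1a3 was 3.25 in replicate 1 and 2.92 in replicate 2, and the part of myeloid cells in this step was not tested. Aldh1a1, by contrast, gave 0.34 (SE 0.19, 95% interval -0.08 to 0.76, limma adjusted p = 0.2698) in this pair.

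Within the basal side neither enzyme passed limma in any pair of groups. For Aldh1a1, Thy-1+CD24medCD49fhigh minus CD24medCD49fmed was 0.50 log2 (95% interval -0.84 to 1.84, limma adjusted p = 0.6665) and Thy-1-CD24medCD49fhigh minus CD24medCD49fmed -0.59 (95% interval -1.45 to 0.26, adjusted p = 0.9994). For Aldh1a3 the same differences were 0.08 (95% interval -0.996 to 1.16, adjusted p = 0.9354) and 0.29 (95% interval -0.39 to 0.96, adjusted p = 0.9994). Thy-1+CD24medCD49fhigh minus Thy-1-CD24medCD49fhigh was 1.09 for Aldh1a1 (limma adjusted p = 0.7553). That difference passed by one-sided rank products at a threshold of 0.01 (permutation p = 0.00556), as 163 of the 7190 rows did in either direction. For Aldh1a3 the difference was -0.20 (limma adjusted p = 0.9241, permutation p = 0.535). By permutation a share of 0.01 of rows is expected to pass in each direction, and 163 rows is little more than both directions together would give. Against CD24medCD49fmed cells 0.00% of rows passed by limma in either comparison, with 383 and 84 at an unadjusted p under 0.05. By limma no order among the basal neighbours was established for these genes. The intervals reach beyond 1 log2 for most of these differences and do not show equal levels.

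The 3 probe sets of Aldh1a3 agreed in direction and differed in size. Luminal minus basal was 4.06 log2 for 1417642_at (limma adjusted p = 1.444e-09), 4.22 for 1448789_at (adjusted p = 2.977e-10) and 2.07 for 1427395_a_at (adjusted p = 5.566e-06). The 1427395_a_at probe set, whose suffix marks probes shared by transcripts of one gene, gave the smallest of these differences. The gap between CD24highCD49fmed and CD24medCD49f-/low was -1.97, -1.27 and -1.62 for 1417642_at, 1448789_at and 1427395_a_at (adjusted p = 0.009017, 0.019 and 0.01622). Aldh1a1 rested on 1 probe set, 1416468_at, with no second to set beside it.

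**Figure D3:**
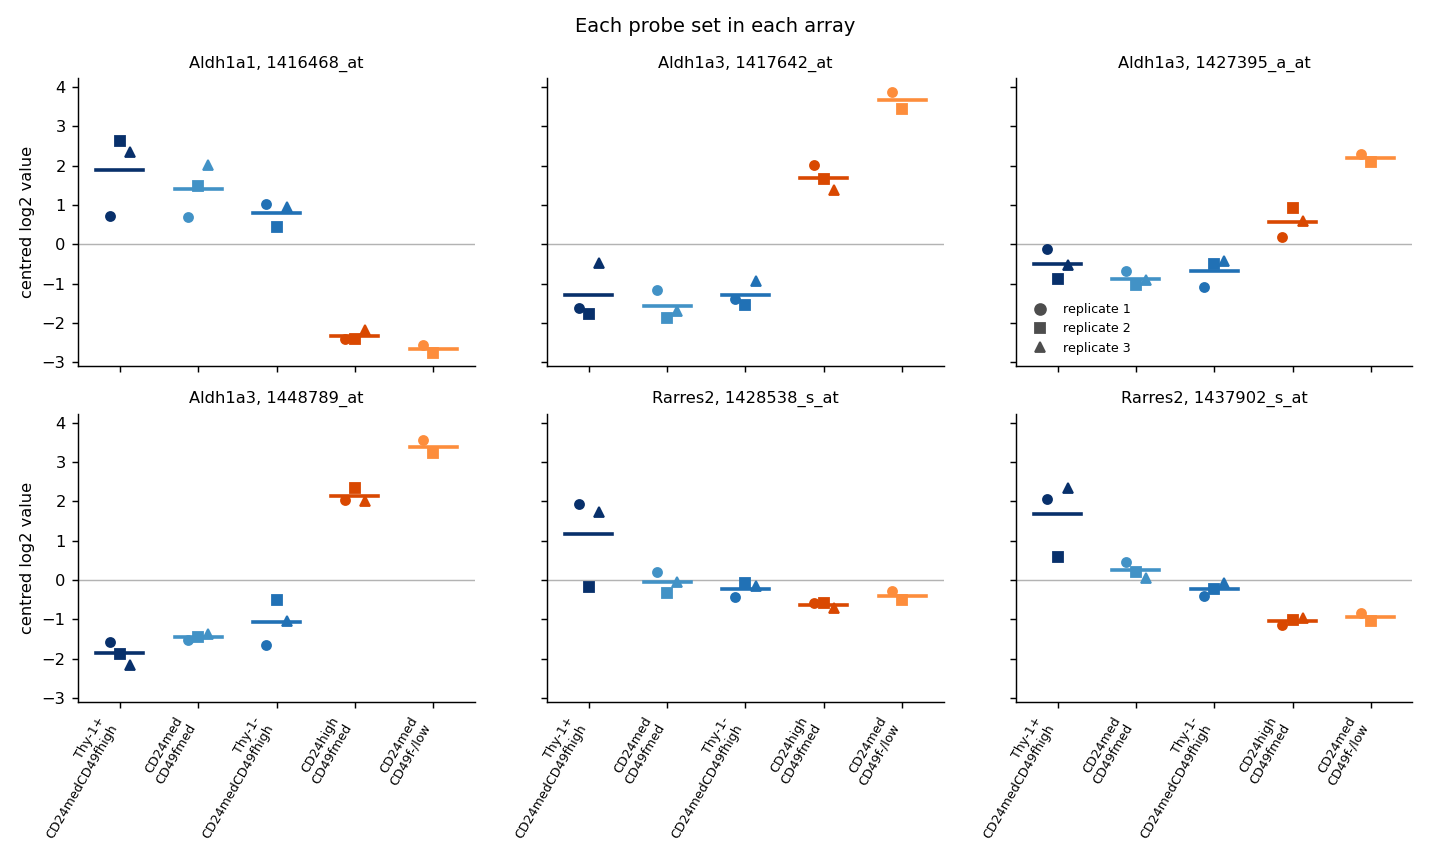
Centred log2 value (vertical axes) of each of the 6 probe sets in the 14 arrays by sorted group (horizontal axes), with symbols by replicate number and lines at group means. All 3 Aldh1a3 probe sets rank CD24medCD49f-/low above CD24highCD49fmed and both above the basal groups, and both Rarres2 probe sets place Thy-1+CD24medCD49fhigh replicate 2 well below replicates 1 and 3.

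Rarres2, the chemerin gene, was lower in luminal arrays like Aldh1a1, with a smaller step and a different pattern among the basal arrays. Its level was 2.00, 0.20 and 2.04 log2 in Thy-1+CD24medCD49fhigh cells, 0.33, -0.06 and 0.01 in CD24medCD49fmed cells and -0.42, -0.16 and -0.11 in Thy-1-CD24medCD49fhigh cells. In luminal cells it was -0.86, -0.80 and -0.83 for CD24highCD49fmed and -0.57 and -0.78 for CD24medCD49f-/low. With both probe sets averaged, every luminal array was below every basal array, and 2 arrays, both Thy-1+CD24medCD49fhigh, stood well above the other 12. The sides overlapped for 1428538_s_at alone, with -0.29 in CD24medCD49f-/low replicate 1 above -0.44 in Thy-1-CD24medCD49fhigh replicate 1. For 1437902_s_at the lowest basal value was -0.40 and the highest luminal value -0.84. How many of all rows part the sides in this way was not counted.

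Luminal minus basal was -1.18 log2 for Rarres2 (SE 0.31, 2.26-fold lower, 95% interval -1.82 to -0.53, limma adjusted p = 0.004434). Without Thy-1+CD24medCD49fhigh replicates 1 and 3, an alternative chosen after seeing the data, it was -0.77 (adjusted p = 0.001975), where Aldh1a1 and Aldh1a3 gave -4.11 and 3.54. Of the 6 pairs of a luminal and a basal group, 3 passed, against CD24medCD49fmed both (-0.93 for CD24highCD49fmed, adjusted p = 0.003784, and -0.77 for CD24medCD49f-/low, adjusted p = 0.03895) and CD24highCD49fmed against Thy-1+CD24medCD49fhigh (-2.24, adjusted p = 0.02256). The pairs that did not pass were CD24highCD49fmed minus Thy-1-CD24medCD49fhigh (-0.60, adjusted p = 0.07633) and CD24medCD49f-/low minus Thy-1+CD24medCD49fhigh (-2.09, adjusted p = 0.1761) or minus Thy-1-CD24medCD49fhigh (-0.45, 95% interval -1.17 to 0.28, adjusted p = 0.3611). Whether the pairs differ from one another was not tested. The luminal groups gave -0.16 (95% interval -0.56 to 0.25, adjusted p = 0.5944). By probe set, luminal minus basal was -1.55 for 1437902_s_at (adjusted p = 0.0003771) and -0.81 for 1428538_s_at (adjusted p = 0.05108).

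The study compared Thy-1+CD24medCD49fhigh cells, its population enriched for mammary repopulating cells, with both other basal groups. It chose Rarres2 and Aldh1a1 as examples on these samples, so their direction here is not independent evidence. Beyond these arrays, the study describes the same enrichment in arrays of FVB mice and in PCR measurements. It also describes it for Procr-enriched cells in published single-cell data. For these results its text names Aldh1a1 and Rarres1, and its figure legends name Aldh1a1 and Rarres2. Those other data were not examined here. In the arrays analysed here Rarres2 was 1.48 log2 higher than in both other basal groups (SE 0.47, 95% interval 0.49 to 2.47, limma adjusted p = 0.3173). The two-sided exact permutation p was 0.02381 over 84 splits, which allow no p below 0.0119. Aldh1a3, not among those examples, gave -0.06 (95% interval -0.93 to 0.80, exact permutation p = 0.75) and Aldh1a1 0.79 (95% interval -0.24 to 1.83, exact permutation p = 0.1786). By limma 0.00% of rows passed, with 1106 at an unadjusted p under 0.05. Against Thy-1-CD24medCD49fhigh alone 0.0417% of rows passed (380 at an unadjusted p under 0.05) and none of the 3 genes was among them, with Rarres2 at 1.64 (adjusted p = 0.7553), Aldh1a1 at 1.09 (adjusted p = 0.7553) and Aldh1a3 at -0.20 (adjusted p = 0.9241).

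The Rarres2 value was set by the same 2 arrays that stood apart. Without replicate 2 the difference from both other basal groups was 2.09 (limma adjusted p = 0.006475), and without replicates 1 and 3 it was 0.27 (adjusted p = 0.9999). Aldh1a1 moved the other way, to 0.43 without replicate 2 and 1.52 without replicates 1 and 3, neither past the test. In these comparisons a lone remaining array is assumed to vary like the other groups.

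Some markers of other cell types were high in the 2 high Rarres2 arrays. In Thy-1+CD24medCD49fhigh replicates 1, 2 and 3 the median of 12 fibroblast genes was 0.86, 0.09 and 1.39 log2, and that of 7 Schwann cell genes 0.76, 0.25 and 1.41. The fibroblast collagen gene Col1a1 was 2.71, -0.45 and 2.89, and the myelin gene Mbp 2.55, 0.17 and 2.49. Thy1, the gene of the sorted antigen, which fibroblasts also express, was 2.00, -0.07 and 3.03. These 3 genes share with Rarres2 the low value of replicate 2. Over the whole lists, Thy-1+CD24medCD49fhigh minus both other basal groups was above 0 for 9 of 12 fibroblast genes (median 0.83) and 6 of 7 Schwann cell genes (median 0.83), beside a median of -0.46 over all rows. By limma 0 genes of either list passed, with 5 and 4 at an unadjusted p under 0.05. The members below 0 were the fibroblast genes Fbln1, Fbln2 and Postn and Sox10, the transcription factor gene of the Schwann cell lineage. Sox10 was -2.79, 0.54 and 0.10 in replicates 1, 2 and 3, with means of 0.44 in CD24medCD49fmed and 0.78 in Thy-1-CD24medCD49fhigh cells. Fbln2, a matrix fibulin gene, was -0.18, 1.88 and -1.12, with means of 2.33 and 1.01 in those groups. These 2 were thus lower in replicates 1 and 3 than in replicate 2, the reverse of Rarres2.

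Other lists were high in replicate 1 alone, with a median of 10 endothelial genes of 2.78, 0.01 and -0.09, of 7 pericyte genes of 2.35, -0.21 and 0.39 and of 3 adipocyte genes of 2.00, 0.32 and 0.36. The median of the 14 basal epithelial genes was 0.62, 1.68 and 0.43, highest where Rarres2 was lowest. In the other 6 basal arrays fibroblast medians lay between -0.15 and 0.74 and Schwann cell medians between -0.23 and 0.36. CD24medCD49fmed replicate 1, with an endothelial median of 2.52 and a fibroblast median of 0.74, had the highest Rarres2 value of those 6, 0.33. Because values are centred on the 14 arrays, no marker can be called absent. The part of these cell types in the Rarres2 values was not tested.

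**Figure D4:**
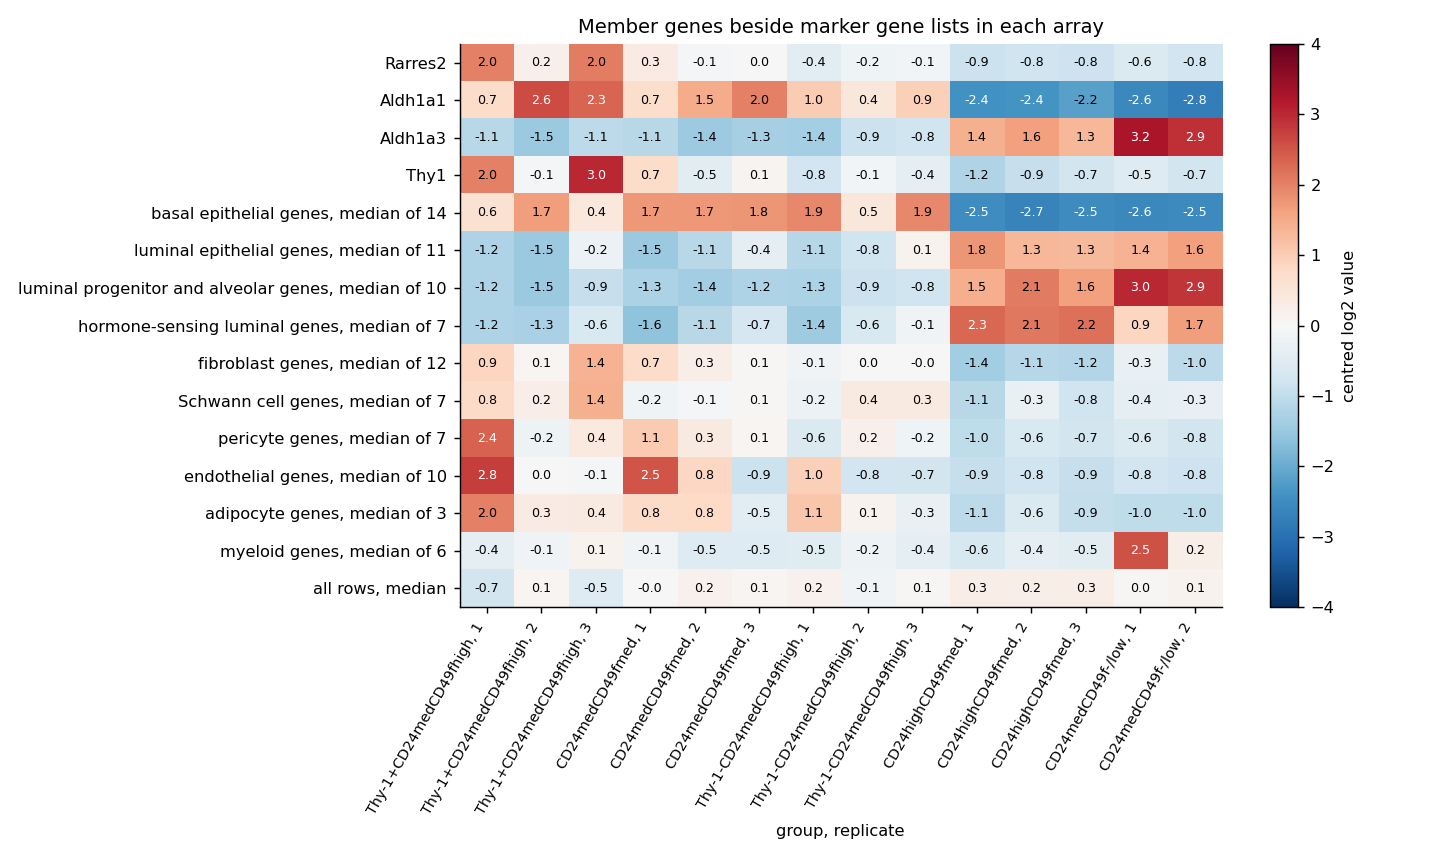
Centred log2 values (colour and printed number) of Rarres2, Aldh1a1, Aldh1a3, Thy1 and the median of each marker gene list (rows) in the 14 arrays (columns, group and replicate). Rarres2, Thy1 and the fibroblast and Schwann cell medians are highest in Thy-1+CD24medCD49fhigh replicates 1 and 3. Aldh1a1 changes sign with the basal list, and Aldh1a3 with both the luminal progenitor and alveolar list and the hormone-sensing luminal list.

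Of the wider retinoid pathway, 31 other genes were in the table, which holds only probe sets that passed the authors' filters. Between luminal and basal cells 8 were higher, 8 were lower and 15 did not pass, with a median difference of -0.05 log2 beside 0.33 over all rows. Both directions are thus present in a contrast that 45.1% of all rows passed, 27.7% higher and 17.4% lower in luminal cells. The counts by role below are small and are to be read beside those shares. With each array centred on its median 6 of the 31 were higher and 10 lower.

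Among genes of uptake and transport, Lrp1, a receptor that takes up retinyl ester-bearing remnants, was lower in luminal cells (-1.79 log2, adjusted p = 1.994e-05), as was the fatty acid translocase gene Cd36 (-1.98, adjusted p = 0.01839). Cd36 ran from -1.26 to 3.98 in the basal arrays (SD 1.95) and from -1.42 to -1.09 in the luminal arrays, so the sides overlapped. Its mean in Thy-1-CD24medCD49fhigh cells was -0.58. The other 3 of 5 measured genes did not pass. Upstream of both ALDH enzymes, 3 of 8 genes of the step between retinol and retinal were higher in luminal cells and none lower. Of all rows 27.7% were higher and 17.4% lower, so this small count lay near the share of all rows. Dhrs3, a retinal reductase that turns retinal back to retinol, was 1.56 higher (adjusted p = 9.104e-05), the aldo-keto reductase gene Akr1b8 1.13 higher (adjusted p = 0.008284) and the alcohol dehydrogenase gene Adh1 0.94 higher (adjusted p = 0.02672). Rdh10, the main embryonic retinol dehydrogenase, was at -0.50 (adjusted p = 0.2176).

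Downstream, 1 of 2 measured retinoic acid carrier genes was higher and 1 lower. Crabp2, which delivers retinoic acid to its nuclear receptors, was 1.47 higher in luminal cells (SE 0.27, adjusted p = 0.0001873). Its level was -0.96 to -0.11 in the 9 basal arrays, -0.01, 0.68 and 0.53 in CD24highCD49fmed cells and 1.68 and 1.46 in CD24medCD49f-/low cells. The order of these 3 tiers was that of Aldh1a3, but the lower tiers were parted only between -0.11 and -0.01. The share of all rows with such tiers was not counted. For Crabp2 CD24highCD49fmed minus CD24medCD49f-/low was -1.17 (adjusted p = 0.03105).

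Fabp5, which carries fatty acids and retinoic acid to PPARs, was lower in luminal cells (-1.73, adjusted p = 0.0001113). Of 4 receptor and cofactor genes 1 passed, the retinoic acid receptor cofactor gene Zfp423, at -1.61 (adjusted p = 0.02202). Its value of 4.50 in Thy-1+CD24medCD49fhigh replicate 1 lay far above the -0.33 to 0.61 of the other 8 basal arrays. No gene of carotene cleavage or of retinoic acid catabolism was in the table analysed here.

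Of 12 genes named for induction by a retinoid or known to respond to one, 4 were higher and 4 lower in luminal cells. The shares of all rows were 27.7% and 17.4%. Higher were Gprc5a (2.12), the transglutaminase gene Tgm2 (1.80), the transcription factor gene Sox9 (1.78) and Gprc5c (0.87), with adjusted p from 1.817e-05 to 0.0388. Lower were Rai2 (-3.59), the pyruvate dehydrogenase kinase gene Pdk4 (-1.87) and Gprc5b (-1.38), with adjusted p from 1.692e-06 to 0.002795, and Rarres2 itself. Rai2 was lower than 0 also in Thy-1+CD24medCD49fhigh replicates 1 and 3, at -0.94 and -1.17 against 2.19 in replicate 2, the reverse of Rarres2. The response genes thus did not share a direction on either side.

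Between the luminal groups 2 of the 31 genes passed, both lower in CD24highCD49fmed cells, Crabp2 and the lipocalin gene Lcn2 (-1.57, adjusted p = 0.01335), beside 5.59% of all rows, 2.57% lower. The count of lower genes was 0 with all 14 arrays in the fit, 5 with the replicate number as a block and 0 to 2 with 1 array left out. Against both other basal groups, 0 of the 31 passed in Thy-1+CD24medCD49fhigh cells by limma (10 at an unadjusted p under 0.05), with a median of -0.50 beside -0.46 over all rows. Without Thy-1+CD24medCD49fhigh replicate 2, which leaves that group the arrays with medians of -0.74 and -0.51 over all rows, 10 were called lower.

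**Figure D5:**
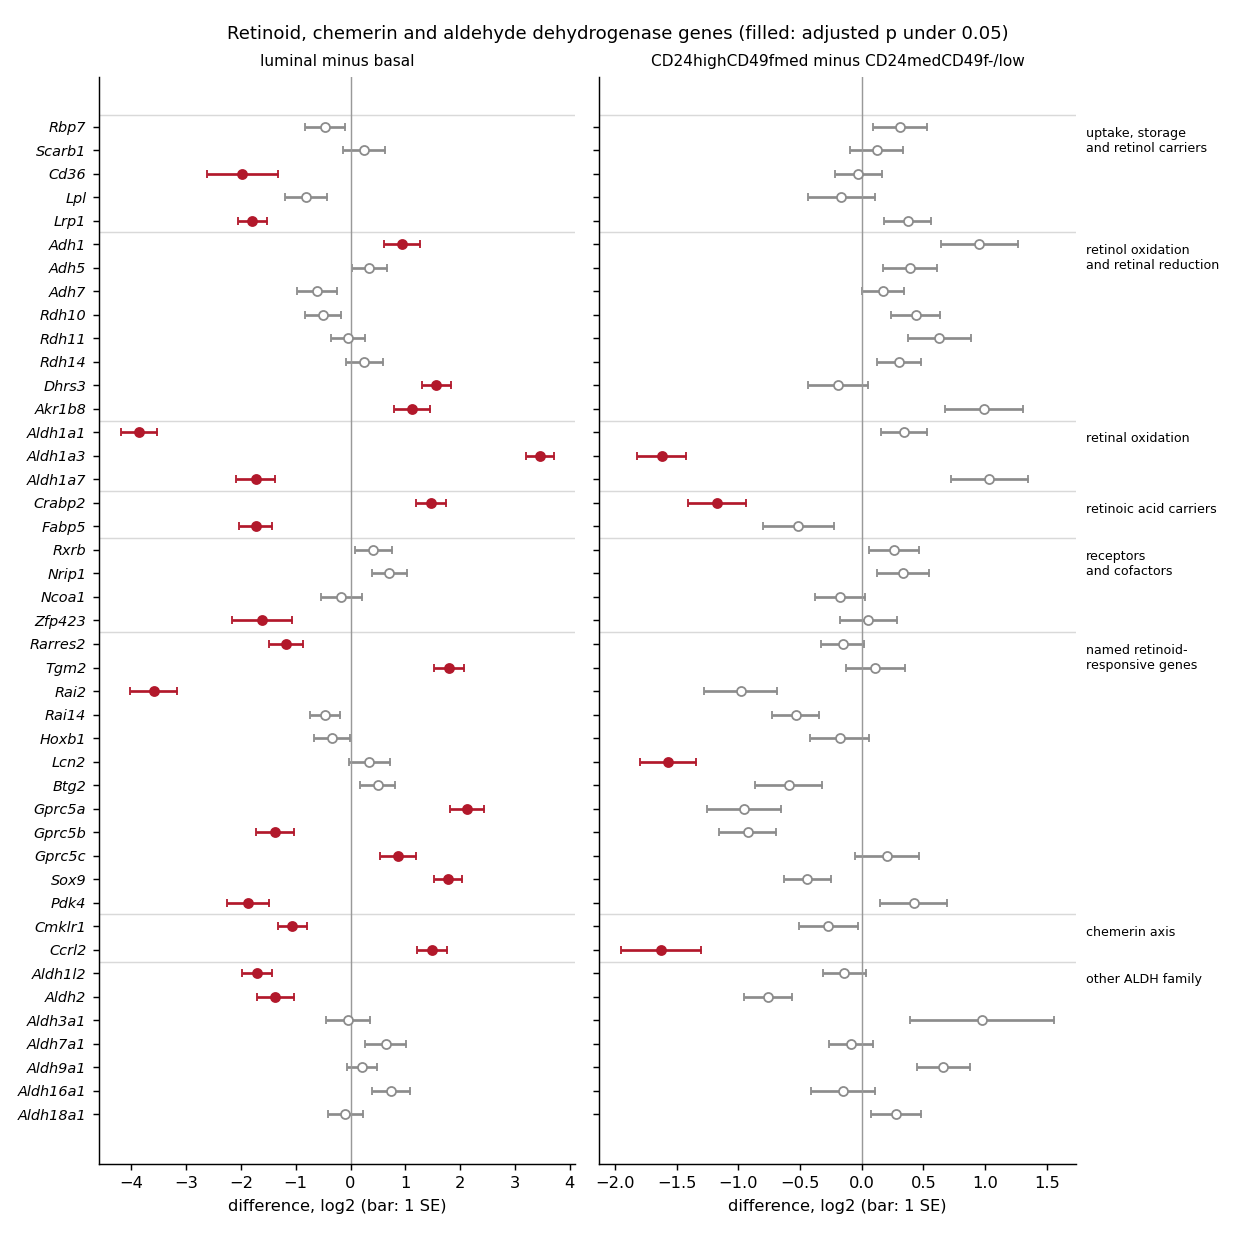
Difference in log2 (horizontal axes, bars 1 SE) for luminal minus basal cells and for CD24highCD49fmed minus CD24medCD49f-/low cells, by gene (rows) grouped by role, with filled red points where the limma adjusted p is under 0.05. Aldh1a1 and Aldh1a3 lie furthest out on opposite sides in the first panel, and Aldh1a3, Crabp2, Lcn2 and Ccrl2 are the called genes in the second.

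Of 8 other aldehyde dehydrogenase genes, none was higher and 3 were lower in luminal cells. Of all rows 27.7% were higher and 17.4% lower, so 3 of 8 called lay near the 45.1% of all rows that passed. Aldh1a7, a close rodent paralog of Aldh1a1, was lower, at -1.73 log2 (SE 0.36, adjusted p = 0.000655). Its levels differed from those of Aldh1a1 in Thy-1+CD24medCD49fhigh cells, at -0.60, -0.20 and -0.56, and reached 1.88 in CD24medCD49fmed and 1.87 in Thy-1-CD24medCD49fhigh cells. Probes for such similar genes may bind both transcripts, which was not tested. The mitochondrial folate enzyme gene Aldh1l2 (-1.70, adjusted p = 5.262e-05) and Aldh2, of the mitochondrial enzyme of ethanol-derived acetaldehyde (-1.37, adjusted p = 0.002221), were lower too.

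Aldh3a1, Aldh7a1, Aldh9a1, Aldh16a1 and Aldh18a1 did not pass, with differences from -0.10 to 0.74. Aldh1a3 was the single gene of the 10 measured in this family that was called higher in luminal cells. That count was 0 besides Aldh1a3 in the comparison as designed and 1 with the replicate number as a block, without Thy-1+CD24medCD49fhigh replicate 2 or without Thy-1-CD24medCD49fhigh replicate 3. Between the luminal groups none of the 8 passed by limma (3 at an unadjusted p under 0.05). In Thy-1+CD24medCD49fhigh against both other basal groups none passed (1 at an unadjusted p under 0.05), and 4 were called lower without Thy-1+CD24medCD49fhigh replicate 2.

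The 2 measured chemerin receptors lay on opposite sides. Cmklr1, the signalling receptor, was lower in luminal cells (-1.06 log2, SE 0.26, adjusted p = 0.002931), with levels of 0.02 to 0.98 in basal and -1.12 to -0.32 in luminal arrays. Ccrl2, which binds chemerin without signalling through it, was 1.48 higher (SE 0.28, adjusted p = 0.0002474). Its level was 0.14, -0.05 and 0.51 in CD24highCD49fmed cells and 2.37 and 1.28 in CD24medCD49f-/low cells, and this step of -1.63 passed (adjusted p = 0.03037). Ccrl2 is also expressed by myeloid cells. Its higher CD24medCD49f-/low value was in replicate 1, where the median of the myeloid list, which includes Cd14, was 2.54. The part of myeloid cells in it was not tested.

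Likeness to each member was measured as the root mean square difference of centred log2 values over the 14 arrays, among 6043 other genes, and is a description only. Nearest to Aldh1a1 were the basal keratin gene Krt14 (0.52), Vgll3 (0.54), Gnai1 (0.62), Phyhip (0.64) and the galectin gene Lgals1 (0.66). Nearest to Aldh1a3 were the sodium-glucose transporter gene Slc5a1 (0.21), Cd14 (0.24), the choline transporter gene Slc5a7 (0.25), Clic6 (0.25) and the proton pump subunit gene Atp6v1b1 (0.28). Nearest to Rarres2 were the basement membrane gene Nid2 (0.25), the fibronectin gene Fn1 (0.29), Ifit3 (0.29), Tmod2 (0.29) and Nrn1 (0.30). Aldh1a3 was among the genes farthest from Aldh1a1, at 3.53, and Rarres2 lay at 1.52 from Aldh1a1 and 2.30 from Aldh1a3. Krt14, Cd14 and Fn1 are also members of the basal, luminal progenitor and fibroblast marker lists, and Cd14 is on the myeloid list too.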

How the data were processed

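Total RNA of sorted cells was labelled in 2 cycles and hybridised to Affymetrix mouse genome arrays. The deposited log2 values of 14 arrays were made by the authors by RMA, a filter on signal and on a 4-fold difference, and mean-centring of each probe set. The submitters' processing notes also name GCRMA, and no version is given in the sources used here. Centring removed absolute levels, so no filter on dim probe sets was possible, and the filter makes the share of changed rows larger than on a whole array. Array number limits the precision.

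Of 9645 probe sets, 8499 had 1 symbol (averaged to 6044 genes), 199 had several and 947 had none. The latter were kept as single rows, giving 7190. The members and gene lists were chosen with earlier results of these data known. Named genes are the members, genes of the retinoid, chemerin and aldehyde dehydrogenase lists, the 5 nearest genes of each member, and defining markers beside a result. Differences were tested by limma (version 3.58.1, under R 4.3.3), as two-sided moderated contrasts of group means with Benjamini-Hochberg adjustment over all rows and a threshold of 0.05, on the arrays of the groups compared, and on all 14 for luminal minus basal. The method was tested on simulated data. Exact permutations were computed in R, and rank products in Python 3.11.15 with pandas 2.3.3. No 2 arrays held the same values. Alternatives were a replicate block, array weights, single probe sets, median centring, quantile normalization, all 14 arrays, each array left out, pairs of groups, and the rank products of the study's methods at a p of 0.01, with values permuted within each array 100 times.

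Same-numbered arrays deviated together for CD24medCD49fmed with Thy-1+CD24medCD49fhigh (r = 0.388, 0.391 and 0.386) and with Thy-1-CD24medCD49fhigh (r = 0.374, 0.328 and 0.558), but not for Thy-1+CD24medCD49fhigh with Thy-1-CD24medCD49fhigh (r = -0.002, -0.160 and 0.245). In the other pairs of groups r ran from -0.029 to 0.296. Arrays with different numbers were not compared, so these values cannot show whether the number itself ties arrays together. The labels give replicate numbers and state no pairing. The block used those numbers, and no fit used these correlations.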

Additional observations from a re-analysis of the deposited data

How the results depend on the processing

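Luminal minus basal for Aldh1a1 and Aldh1a3 kept its direction and call under every alternative run, at -4.56 to -3.13 and 2.07 to 4.38 log2. Rarres2 lost that call for 1 probe set (-0.81, limma adjusted p = 0.05108) and in the pairs CD24highCD49fmed minus Thy-1-CD24medCD49fhigh (-0.60), CD24medCD49f-/low minus Thy-1+CD24medCD49fhigh (-2.09) and CD24medCD49f-/low minus Thy-1-CD24medCD49fhigh (-0.45). With the replicate number as a block no member gained or lost a call, while other aldehyde dehydrogenase genes higher in luminal cells went from 0 to 1. For CD24highCD49fmed minus CD24medCD49f-/low the block called 2 other retinoid genes higher, 5 lower and 1 other aldehyde dehydrogenase gene lower. Array weights called 1 other retinoid gene higher, 1 aldehyde dehydrogenase gene higher and 1 lower, and median centring 1 aldehyde dehydrogenase gene lower. With all 14 arrays that comparison gave -1.62 for Aldh1a3 (no longer called) and 0 other retinoid genes lower. Thy-1+CD24medCD49fhigh minus Thy-1-CD24medCD49fhigh was called for Rarres2 with array weights (1.97, limma adjusted p = 0.04888). It was also past the threshold by one-sided rank products, by permutation, for Rarres2 (1.64, p = 0.00733) and Aldh1a1 (1.09, p = 0.00556). Minus CD24medCD49fmed neither passed it, by permutation (Aldh1a1 0.50, p = 0.0125 and Rarres2 1.32, p = 0.0165). Of all rows 163 and 147 passed it in either direction in these comparisons. Those counts are little more than the share of 0.01 of rows per direction expected by permutation. The cause of these changes was not tested.

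With 1 array left out, Aldh1a3 in CD24highCD49fmed minus CD24medCD49f-/low ran from -1.79 to -1.45 (limma adjusted p = 0.004053 to 0.1172). In that comparison other retinoid genes called higher and lower numbered 0 to 2 each, and other aldehyde dehydrogenase genes called higher 0 to 2. Luminal minus basal called 0 to 1 other aldehyde dehydrogenase genes higher. For Thy-1+CD24medCD49fhigh, Rarres2 ran from 1.17 to 2.09 against both other basal groups and from 1.00 to 1.92 against CD24medCD49fmed, called only where replicate 2 of Thy-1+CD24medCD49fhigh was the array left out, with limma adjusted p = 0.006475 and 0.03869. Other retinoid genes lower numbered 0 to 10 and other aldehyde dehydrogenase genes lower 0 to 4, the highest counts again without replicate 2. Rarres2 luminal minus basal ran from -1.38 to -1.08 and stayed called. Signal over background is not known here because the values are centred.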
